A study of Mus musculus with 2 samples.

Results

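The 10 genes described here encode transcription factors named for secretory or lineage roles in epithelia, and were taken by symbol from the 31053 genes listed in the deposited tables: Spdef, Creb3l1, Foxa2, Sox17, Sox9, Emx2, Trp63, Elf3, Ehf and Klf5. Their transcripts were counted by single-cell RNA sequencing of the mouse cervix in 2 libraries, each from 9 pooled C57BL6/129 mice that were ovariectomised (OVX) at 7 to 8 weeks of age and left to recover for 2 weeks. The control mice were given no treatment, and the progesterone mice were given estradiol (E2, 100 µg per day for 2 days) followed by a 25 mg pellet that released progesterone over 21 days, about 1 mg per day. The experiment lasted 15 days, and its stated subject is Olfm4 as a marker of luminal progenitor cells and of the secretory lineage that they produce. Each group is 1 library of pooled mice, so there was no replicate and no test between the groups. The libraries differed in estradiol, injections and the pellet as well as in progesterone, and these cannot be told apart.

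The cervical canal is lined by a luminal epithelium that makes mucus, and the outer cervix by a stratified squamous epithelium that renews itself from a basal layer. SPDEF is an ETS factor known for driving the maturation of mucous and goblet cells, and CREB3L1 is a membrane-bound factor of the endoplasmic reticulum that turns on genes of protein secretion. FOXA2 is a forkhead factor needed for uterine glands, SOX17 and SOX9 act in epithelial progenitors and glands, and EMX2 is a homeobox factor of the developing reproductive tract. TRP63 (p63) is the master factor of basal stratified epithelium, ELF3 and EHF are ETS factors found across epithelia, and KLF5 is a zinc finger factor of epithelial growth. MUC5B is the main gel-forming mucin of the cervix, OLFM4 a secreted glycoprotein of progenitor cells in other epithelia, and KRT5 the keratin of basal cells.

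Cells were grouped without using any of these genes, and 25 clusters were obtained from 4579 control and 8541 progesterone cells. The median depth was 3733 transcripts (unique molecular identifiers, UMIs) per control cell and 4151 per progesterone cell, and 19 cell barcodes occurred in both libraries. Of these, 14 were epithelial, and they were called luminal-like, basal squamous-like or suprabasal squamous-like from fixed markers, squamous-like with basal and suprabasal markers where these lists could not be separated (cluster 3, 130 control and 974 progesterone cells), or stayed unnamed. Luminal-like cells were clusters 5, 7, 12 and 23, and made up 155 control cells (3.39%) and 2083 progesterone cells (24.4%). All 9 luminal markers, among them Krt8, Krt18 and Epcam, were read in the luminal-like cells of each library. The summed level of these markers was 10842 UMIs per 1000000 UMIs of the group (CPM) in control and 6991 in progesterone luminal-like cells, against 766 and 1109 in basal squamous-like cells.

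The control luminal-like cells were few and shallow, with 475378 UMIs in all against 10205514 in the progesterone cells. They also held more basal RNA: Krt5 was at 3322 CPM in control and 831 in progesterone luminal-like cells, and the 8 basal markers summed to 5539 and 1131 CPM. The 6 neutrophil markers summed to 610 CPM in control and 35.9 in progesterone luminal-like cells, and to 893 and 37.0 CPM in cluster 7. Cluster 14, led by Psca, Sprr2d and Lcn2, was unnamed because its lead over the neutrophil list was too small, but it held all 9 luminal markers at a summed 12529 CPM in its 180 control cells. Its neutrophil score came from S100a8 and S100a9 (7135 and 11226 CPM), while the receptors Csf3r and Cxcr2 were at 15.3 and 12.2 CPM there against 1608 and 2344 CPM in the neutrophil-like control cells. This cluster held 63.4% of all control Spdef UMIs, 74.1% of those of Muc5b and 60.7% of those of Olfm4. Ratios between the libraries are therefore given for the luminal-like cells and for these together with cluster 14, and for most genes also within clusters 5 and 7, which had cells of both libraries. The part that the basal RNA, the neutrophil RNA or the split of the control cells played in the ratios was not tested.

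All 10 are protein-coding genes, placed here on the GRCm38 build. Spdef is at chr17:27714352-27728955, Elf3 at chr1:135253575-135258568, Ehf at chr2:103263433-103303278 and Creb3l1 at chr2:91982328-92024502. Foxa2 is at chr2:148042877-148046969, Sox17 at chr1:4490931-4497354 and Sox9 at chr11:112782224-112787760. Emx2 is at chr19:59458372-59465357, Trp63 at chr16:25683763-25892102 and Klf5 at chr14:99298691-99315036. Emx2 overlaps the antisense gene Emx2os, which had 147 control and 604 progesterone UMIs of its own, and whether counting used the strand is not given in the sources used here. The antisense gene over Elf3, Gm26642, had 2 and 3 UMIs.

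The promoters of Spdef and Elf3 are shown because these ETS genes differed between the libraries in opposite directions in luminal cells, as described further on. The RefSeq table (GRCm38.p6) held a promoter for 4 of the 10 genes. Each is 300 bases long and is printed 5′ to 3′ along the gene, which lies on the minus strand, with capitals marking the ETS core GGAA or its reverse complement TTCC.
Spdef, chr17:27728902-27729201: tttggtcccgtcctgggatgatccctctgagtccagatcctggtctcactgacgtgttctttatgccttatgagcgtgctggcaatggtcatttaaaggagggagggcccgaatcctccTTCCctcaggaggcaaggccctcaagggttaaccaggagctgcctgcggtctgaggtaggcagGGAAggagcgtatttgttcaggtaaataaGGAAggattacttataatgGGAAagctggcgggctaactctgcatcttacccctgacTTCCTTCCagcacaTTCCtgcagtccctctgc
Elf3, chr1:135258423-135258722: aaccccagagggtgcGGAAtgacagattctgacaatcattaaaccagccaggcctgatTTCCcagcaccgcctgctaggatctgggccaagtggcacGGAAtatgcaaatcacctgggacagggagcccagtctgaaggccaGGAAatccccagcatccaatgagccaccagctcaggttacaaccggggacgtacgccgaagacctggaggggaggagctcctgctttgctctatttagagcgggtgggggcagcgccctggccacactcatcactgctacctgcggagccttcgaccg
The Spdef window held 7 matches to GGAA over both strands, a number reached or passed by 8.02% of the 32851 promoters in the table. Elf3 held 4, reached or passed by 46.3%, and 96.0% of all promoters held at least 1 match. The related core GGAT, preferred by SPDEF, had 5 matches in the Spdef window (as many in 4.43% of promoters) and 3 in that of Elf3 (26.4%). The Spdef window also held 1 match to ACGTG, the core of elements bound by CREB3-family factors (found in 19.6% of promoters), which shares 2 bases with a match to the steroid receptor half-site AGAACA (found in 19%). No match to the forkhead core TGTTTAC or the SOX core ACAAAG was found in either window, against 3.65% and 18.7% of all promoters. A match is a description of the letters and not evidence of a bound site.

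Spdef was concentrated in the luminal clusters, and its level was higher with progesterone in luminal-like cells, with or without cluster 14, and within clusters 5 and 7. In the progesterone library it was at 487 CPM in cluster 12 (95% counting interval 462 to 512), 400.3 in cluster 5 (379 to 422) and 167 in cluster 7 (154 to 181), and these intervals did not overlap. Cluster 12 is led by the mucus genes Tff1, Agr2 and Muc5b, cluster 5 by Agr2 and cluster 7 by Clca1. Outside these clusters no progesterone epithelial cluster of at least 50 cells exceeded 24.5 CPM. In the control library Spdef was highest in cluster 14, at 176 CPM (151 to 205), ahead of 92.0 in cluster 7 (60.6 to 134) and 33.9 in cluster 5 (12.4 to 73.7). The intervals of clusters 7 and 5 overlapped.

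Over all luminal-like cells Spdef was at 84.1 CPM in control, from 40 UMIs, and 333 in progesterone, from 3403 UMIs. The ratio was 3.96 (95% counting interval 2.90 to 5.56). With cluster 14 included the levels were 146 and 328 CPM and the ratio 2.25 (1.96 to 2.59). Within cluster 5 the ratio was 11.8 (5.41 to 32.3) and within cluster 7 it was 1.82 (1.24 to 2.78). A single control cell that fell into cluster 12 carried 7 of the 40 control UMIs. Cluster 14 by itself was at 176 CPM in its 180 control cells (counting interval 151 to 205) and 127 in its 19 progesterone cells (86.6 to 179), which overlap. The direction over luminal-like cells was the same in every setting tried, whereas the size moved with the way cells were grouped, from 0.86 to 2.29 on the log2 scale.

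Creb3l1 was nearly absent from the control library. It had 24 UMIs among all control barcodes before filtering. Of these, 1 was in luminal-like cells, 4 in cluster 14 and 9 in cluster 2, against 889 in progesterone luminal-like cells (87.1 CPM). Those progesterone cells held 93.5% of the Creb3l1 UMIs of all analysed progesterone cells, while holding 26.8% of all their UMIs. The luminal-like ratio was 41.4 with a wide interval of 7.41 to 1637, and with cluster 14 included it was 24.8 (10.6 to 76.6). The level was 142 CPM in cluster 12 (129 to 156), above 67.9 in cluster 7 (59.5 to 77.1) and 63.9 in cluster 5 (55.6 to 73.2), which overlapped each other. Within cluster 5 no control UMI was read, and the progesterone level was at least 3.78-fold higher than the 3 counts that a reading of 0 allows.

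Foxa2 was highest in luminal clusters in both libraries, and its ratio depended on whether cluster 14 was included. It was at 84.1 CPM in control and 109 in progesterone luminal-like cells, a ratio of 1.30 whose interval (0.949 to 1.83) included 1. Clusters 5 and 7 also gave intervals that included 1, at 1.17 (0.718 to 2.02) and 1.32 (0.850 to 2.16). In cluster 14 the control level was lower, at 40.8 CPM, and adding this cluster gave a ratio of 1.94 (1.55 to 2.47). In the progesterone library Foxa2 was at 135 CPM in cluster 12, 112 in cluster 5 and 94.6 in cluster 7, neighbours in this order having overlapping intervals. In control, cluster 2, an unnamed epithelial cluster led by Sprr2d and Lcn2, held 54.3% of the Foxa2 UMIs at 22.4 CPM.

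The ETS factors Ehf and Elf3 differed between the libraries in opposite directions in luminal cells. Ehf was at 269 CPM in control and 693 in progesterone luminal-like cells (ratio 2.58, 2.16 to 3.09). Elf3 was at 255 CPM in control and 109 in progesterone (ratio 0.43, 0.356 to 0.523). With cluster 14 included the ratios were 2.00 (1.82 to 2.19) for Ehf and 0.325 (0.294 to 0.359) for Elf3. Within cluster 7 they were 3.34 (2.52 to 4.52) and 0.46 (0.370 to 0.578), and within cluster 5 they were 1.63 (1.30 to 2.08) and 0.667 (0.436 to 1.07), the last interval including 1. In cluster 14 by itself Elf3 ran the other way, at 469.7 CPM in control (428 to 515) and 954 in the 19 progesterone cells (837 to 1082), whose median depth was 12457 UMIs against 4761 in control. On the log2 scale Ehf ran from 0.65 to 1.44 and Elf3 from -1.62 to -0.82 over all settings.

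Ehf and Elf3 were distributed differently over the epithelium as well. Ehf was read in every epithelial cluster, from 170.4 CPM in cluster 7 to 567 in cluster 2 in control, and from 182 in cluster 1 to 882 in cluster 12 in progesterone. Elf3 was concentrated in control in cluster 14 at 469.7 CPM (428 to 515), cluster 7 at 331 (268 to 403) and cluster 2 at 150.1 (141 to 160). In the progesterone library, leaving out the 19 cells of cluster 14, its order was cluster 2 at 224 CPM (183 to 271), cluster 7 at 152 (139 to 166) and cluster 23 at 121 (86.5 to 164), the last pair overlapping.

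**Figure D1:**
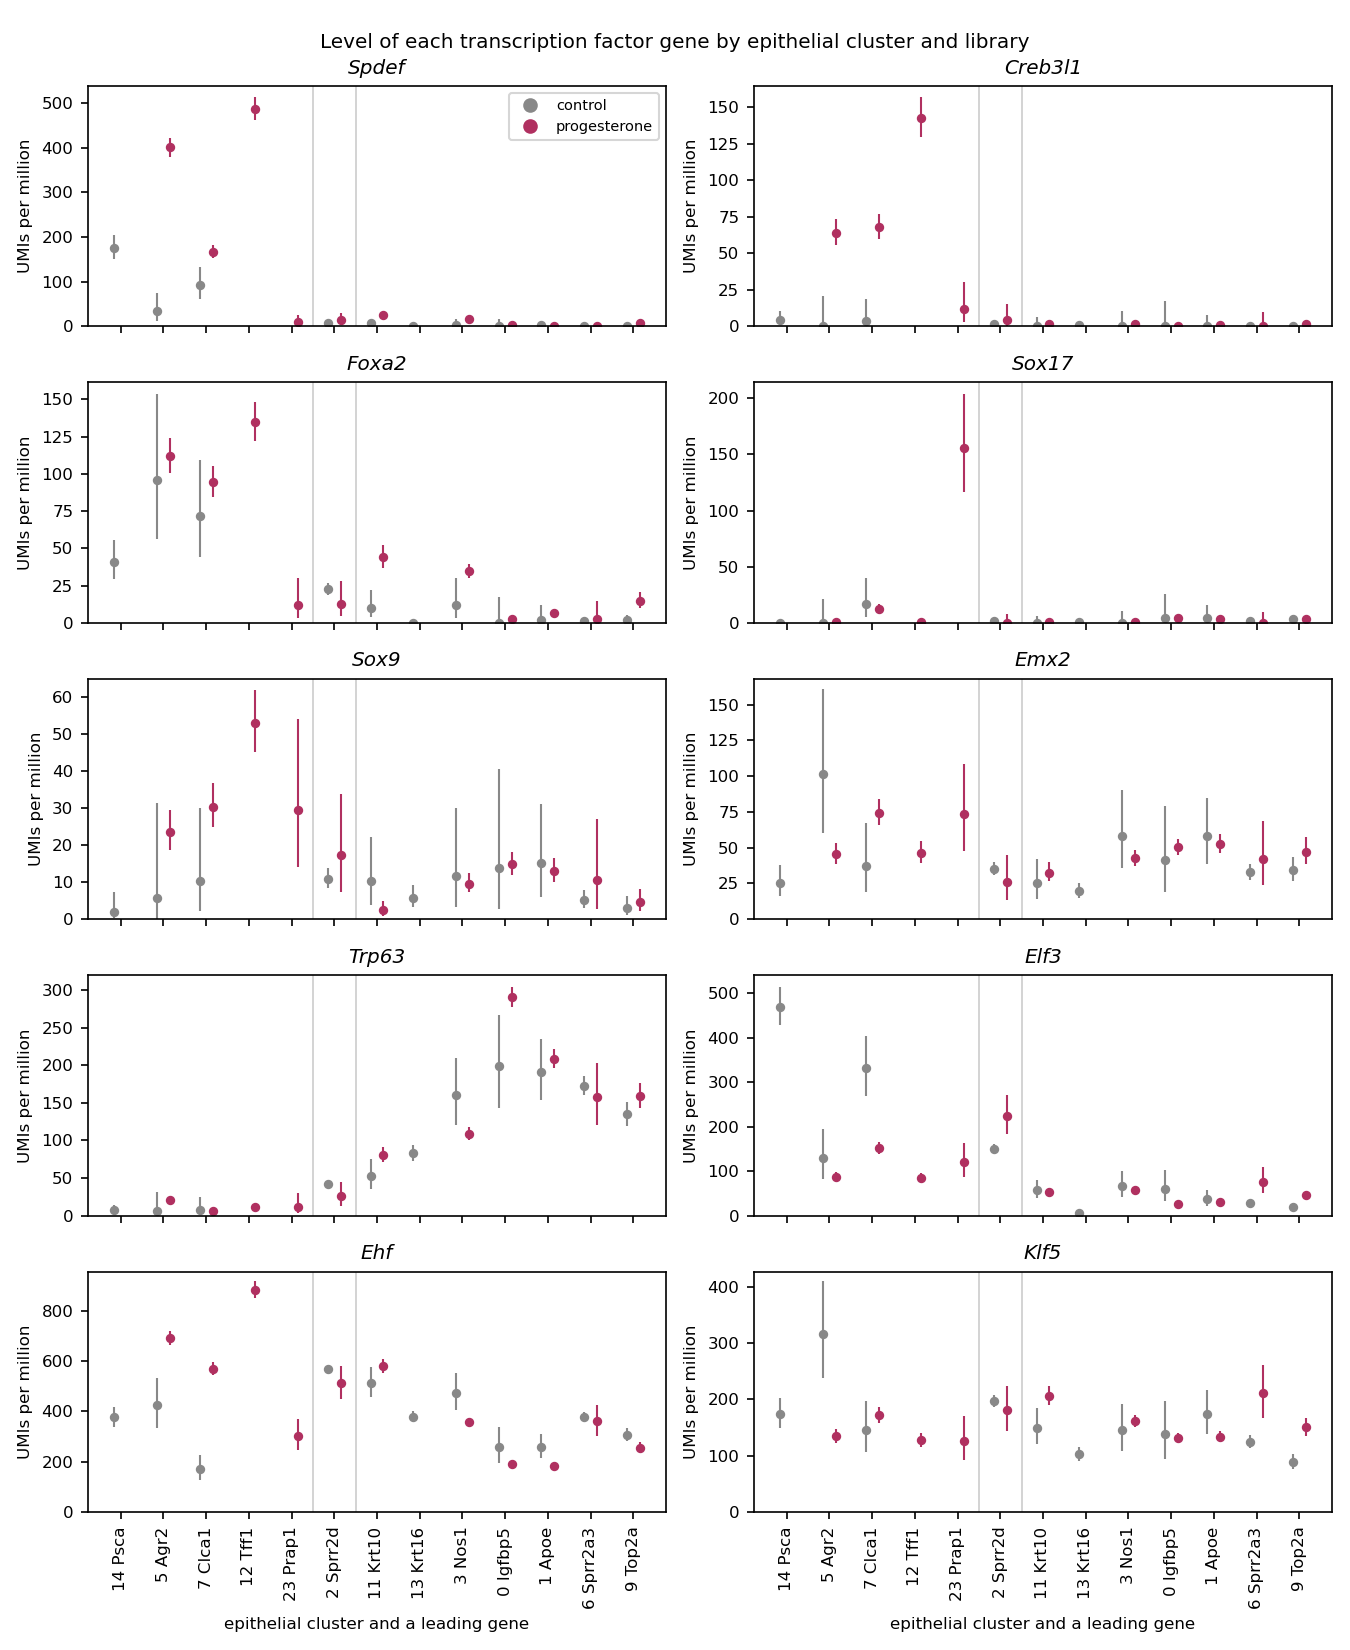
Level of each of the 10 genes (vertical axis, UMIs per 1000000 of the group) in the epithelial clusters (horizontal axis, cluster number and a leading gene), with grey points for the control library and red points for the progesterone library. Bars are 95% Poisson counting intervals, and a point is shown where the library had enough cells of the cluster; luminal clusters and cluster 14 stand left of the first grey line, and Spdef reaches 487 CPM in cluster 12 while Trp63 stays at or below 20.8 CPM among the points left of that line.

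The SOX factors rested on few UMIs. Sox9 was at 8.41 CPM (4 UMIs) in control and 34.9 CPM (356 UMIs) in progesterone luminal-like cells, a ratio of 4.15 (1.60 to 15.3). With cluster 14 the ratio was 8.33 (3.79 to 22.9), whereas within cluster 5 (4.17, 0.726 to 167) and cluster 7 (2.97, 0.989 to 14.6) the intervals included 1. In progesterone its highest level was 52.9 CPM in cluster 12 (45.1 to 61.7), ahead of 30.4 in cluster 7 (24.9 to 36.7). In control the leading clusters, led by cluster 1 at 15.0 CPM from 7 UMIs, had overlapping intervals and no order could be given. Sox17 did not differ detectably over luminal-like cells (10.5 and 9.80 CPM from 5 and 100 UMIs, ratio 0.932, 0.386 to 2.93). With cluster 14, which added no Sox17 UMI, the levels were 3.43 and 9.56 CPM and the ratio was 2.79 (1.15 to 8.77). Its UMIs were uneven within the progesterone luminal-like cells: cluster 23, 37 cells led by Prap1, held 53 of the 100 at 156 CPM (117 to 204), cluster 7 was at 12.6 CPM (9.16 to 16.9), and cluster 12 held 1 UMI.

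Cluster 23 stood apart in other secretory factors too. Spdef was at 8.82 CPM there (1.82 to 25.8) and Foxa2 at 11.8 (3.21 to 30.1), both below their intervals in clusters 5, 7 and 12. In cluster 23, which had no control cell, 8 of the 9 luminal markers passed the detection rule. Outside the epithelium Sox17, which is also an endothelial factor, was at 118 CPM (69.0 to 190) in the 62 blood endothelium-like progesterone cells.

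Emx2 was spread over the epithelium at low levels, from 19.4 to 102 CPM over control clusters and from 25.8 to 74.5 over progesterone clusters, leaving out the 19 progesterone cells of cluster 14 (15.8 CPM from 4 UMIs). Its luminal-like ratio was 0.927 (0.638 to 1.40), but clusters 5 and 7 gave intervals on opposite sides of 1. In cluster 5 it was at 102 CPM in control and 45.3 in progesterone (ratio 0.445, 0.272 to 0.772), and in cluster 7 at 37.5 and 74.5 CPM (1.99, 1.09 to 4.03). These rest on 18 and 11 control UMIs, and the difference between the clusters was not tested. With cluster 14 the luminal ratio was 1.499 (1.13 to 2.02).

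Klf5 was read in all epithelial clusters, from 88.6 to 316 CPM in control and from 126 to 211 CPM in progesterone, leaving out the 19 progesterone cells of cluster 14 (111 CPM from 28 UMIs). It was lower with progesterone in luminal-like cells, at 210.4 CPM in control and 145 in progesterone (ratio 0.691, 0.564 to 0.855), and with cluster 14 the ratio was 0.777 (0.682 to 0.888). Cluster 5 had 316 and 135 CPM (0.427, 0.323 to 0.575). In cluster 7 the levels were 147 and 172 CPM, and the interval of the ratio included 1 (1.18, 0.863 to 1.64).

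Trp63 was at 6.31 CPM in control and 12.4 in progesterone luminal-like cells, from 3 and 127 UMIs, and the interval of the ratio included 1 (1.97, 0.660 to 9.69). With cluster 14 it was 1.92 from 10 and 138 UMIs, with an interval (1.01 to 4.10) just above 1. Trp63 was higher in neutrophil-like cells, at 13.9 CPM in control and 32.6 in progesterone, from 3 and 13 UMIs. The part of RNA from other cells in the luminal levels and shares of Trp63 was not tested. Over these 10 genes, 4 were at least 2-fold higher in progesterone luminal-like cells (Spdef, Creb3l1, Sox9 and Ehf) and 1 at least 2-fold lower (Elf3). Among all 11186 genes with at least 20 UMIs in luminal-like cells, 16.0% were at least 2-fold higher and 8.87% at least 2-fold lower. The median log2 ratio was 0.56 over the 10 genes and -0.08 over all genes tested. With cluster 14 counted as luminal 4 of the 10 were higher (Spdef, Creb3l1, Sox17 and Sox9, with Ehf just under 2-fold) and 1 lower (Elf3), against 23.9% and 7.6% of 11415 genes. The median log2 ratio of all genes was then 0.40. The count of 5 was 2 after a stricter cell filter, without doublet removal or at a finer clustering. Creb3l1 and Sox9 stayed past 2-fold in each, while Spdef, Ehf and Elf3 kept their direction and came to log2 ratios between -0.96 and 0.96. The share of all genes past 2-fold in these settings is not given here.

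**Figure D2:**
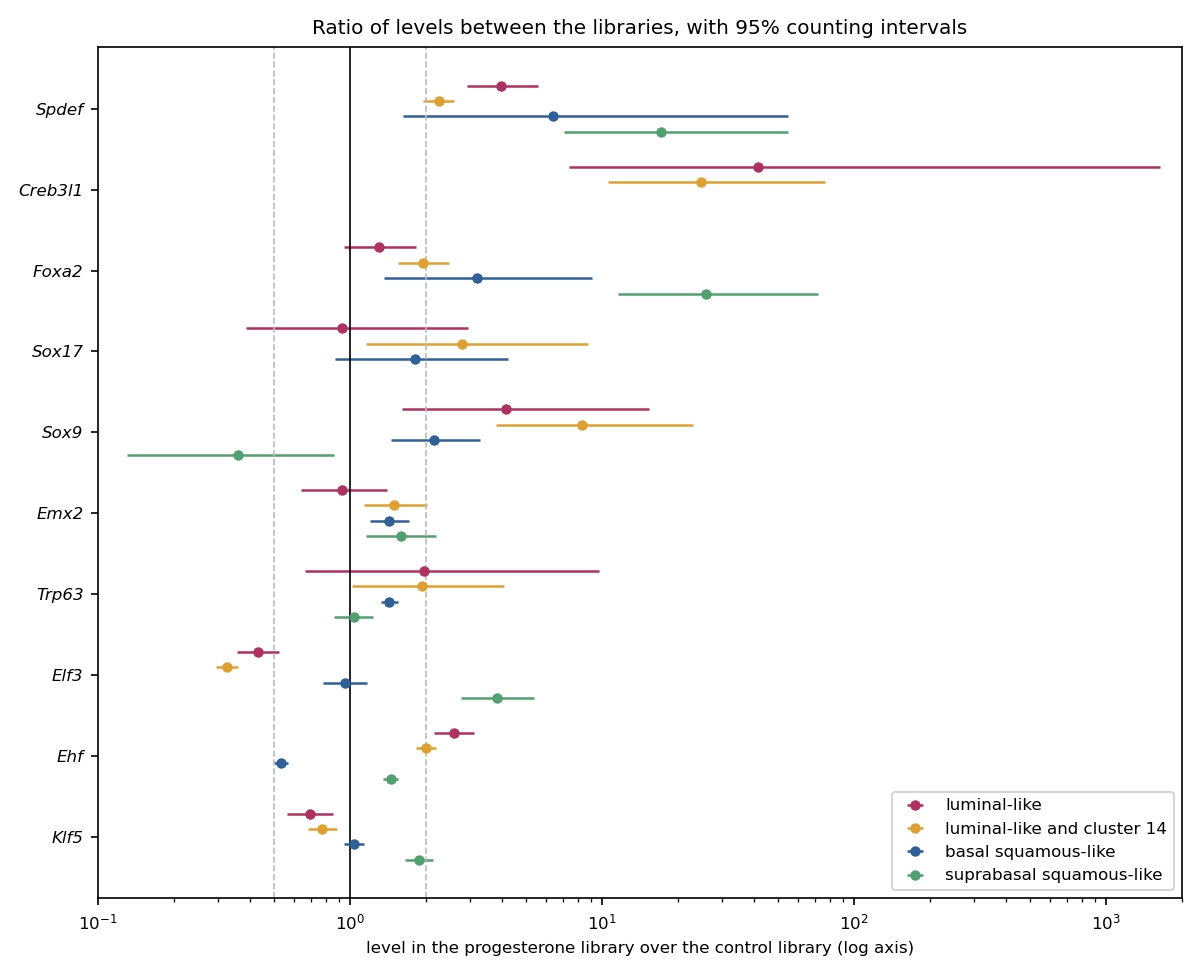
Ratio of the level in the progesterone library to that in the control library (horizontal log axis) for each of the 10 genes, in luminal-like cells (red), these with cluster 14 (orange), basal squamous-like (blue) and suprabasal squamous-like cells (green); bars are 95% counting intervals and dashed lines mark 2-fold. Spdef and Creb3l1 lie to the right of 1 in the luminal groups, Elf3 to the left of it, and genes under 20 UMIs in a group are not drawn.

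In basal squamous-like cells Trp63, the basal lineage factor, was higher in the progesterone library. It was at 176 CPM in control and 252 in progesterone (ratio 1.43, 1.33 to 1.55), and these cells held 45.0% of its control and 62.7% of its progesterone UMIs. The groups were made of different clusters: 789 of 1170 control cells were in cluster 6 and 1350 and 1129 of 2538 progesterone cells in clusters 0 and 1. Within cluster 0, led by Igfbp5, Trp63 was at 199 and 291 CPM (1.47, 1.08 to 2.03). Within cluster 1, led by Apoe, it was at 191 and 209 CPM, a ratio whose interval included 1 (1.09, 0.877 to 1.37). Within cluster 6 it was at 173 and 158 CPM, also with an interval that included 1 (0.915, 0.691 to 1.19). In cluster 3, with basal and suprabasal markers, Trp63 was lower with progesterone, at 161 and 109 CPM (0.677, 0.514 to 0.910). In progesterone the order was cluster 0, then cluster 1, then cluster 9 of cycling cells at 159 CPM, with no overlap of the first pair.

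Ehf was lower in progesterone basal cells, at 361 and 192 CPM (ratio 0.532, 0.499 to 0.567), in the opposite direction to luminal-like cells. It was also lower within cluster 0 (0.732, 0.560 to 0.975) and within cluster 1 (0.700, 0.578 to 0.853), but not detectably within cluster 6, which held most of the control cells (378 and 361 CPM, 0.954, 0.795 to 1.14). In cluster 3 Ehf was at 473 and 358 CPM (0.756, 0.644 to 0.892). Elf3 was at 30.4 and 29.1 CPM and Klf5 at 131 and 135 CPM in basal cells, each with an interval that included 1. Spdef, at 2 and 32 UMIs, and Foxa2, at 6 and 48 UMIs, were near the limit of detection there. Sox9 was at 6.48 and 13.9 CPM (2.15, 1.45 to 3.29), but within clusters 0 and 1 its intervals included 1 (1.07, 0.356 to 5.29, and 0.864, 0.396 to 2.24). Of 9 genes tested in basal cells 3 were at least 2-fold higher (Spdef, Foxa2 and Sox9) and 0 lower, against 8.76% and 6.34% of 11491 genes. Without the clusters held almost wholly by 1 library the count was 1, with the share of all genes not given for that setting. Muc5b, the mucin of luminal cells, moved in the same direction in basal cells, at 2.16 and 58.4 CPM, and its part in the Spdef and Foxa2 values was not tested. In progesterone basal cells Spdef was at 2.75 and Foxa2 at 4.13 CPM. Neutrophil-like progesterone cells had higher levels, at 5.02 CPM for Spdef, 12.6 for Foxa2 and 251 for Muc5b, from 2, 5 and 100 UMIs. The part of RNA from other cells in the basal values was not tested.

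In suprabasal squamous-like cells the luminal factors were low but higher with progesterone. Foxa2 was at 1.71 CPM in control and 44.2 in progesterone (ratio 25.9, 11.6 to 71.9), and Spdef at 1.42 and 24.5 CPM (17.2, 7.05 to 54.6). Elf3 was at 13.9 and 53.3 CPM (3.82, 2.76 to 5.38). Most of the control cells, 346 of 459, belonged to cluster 13, led by Krt16, which had no progesterone cell. Within cluster 11, led by Krt10, Foxa2 was at 10.2 and 44.2 CPM (4.33, 1.94 to 12), Spdef at 6.81 and 24.5 CPM (3.59, 1.34 to 13.5) and Elf3 at 57.9 and 53.3 CPM (0.920, 0.632 to 1.37). Muc5b was also higher with progesterone over the suprabasal cells, at 22.7 and 61.0 CPM (2.68, 2.05 to 3.53), but ran the other way within cluster 11, at 133 and 61.0 CPM (0.459, 0.350 to 0.606). The 9 luminal markers summed to 520 CPM in control and 1744 in progesterone suprabasal cells, and to 1148 and 1744 CPM within cluster 11, and their part in the Foxa2 and Spdef values was not tested. In cluster 3 Foxa2 was at 11.7 and 34.4 CPM from 4 and 194 UMIs (2.95, 1.13 to 10.9).

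The remaining factors in suprabasal cells differed by less than 2-fold except Sox9. Ehf was at 401 and 581 CPM (1.45, 1.35 to 1.55) and Klf5 at 110.3 and 206 CPM (1.87, 1.65 to 2.13). Sox9 was at 6.54 and 2.35 CPM from 23 and 7 UMIs (0.359, 0.130 to 0.864), and Trp63 was at 78.2 and 80.7 CPM with an interval that included 1. Within cluster 11 Ehf was at 513 CPM in control (456 to 574) and 581 in progesterone (554 to 609), which overlap. The level intervals also overlapped there for Trp63, at 52.8 (35.9 to 75.0) and 80.7 CPM (70.9 to 91.6). The same held for Sox9, at 10.2 (3.75 to 22.2) and 2.35 CPM (0.943 to 4.83) from 6 and 7 UMIs. Such overlap does not mean that the interval of a ratio included 1. The ratio intervals of Ehf, Trp63 and Sox9 in cluster 11 are not given here. Klf5 was at 150 (120 to 185) and 206 CPM (190 to 223) in cluster 11, with no overlap. Of 8 genes tested, 3 were at least 2-fold higher and 1 lower, against 18.5% and 5.63% of 9546 genes. Without cluster 13 the count of 4 was 2, with the share of all genes not given for that setting.

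The factors were next read in single cells against Muc5b, the mature secretory product. Each cell was thinned to 2000 UMIs, a cell with at least 3 Muc5b UMIs counted as positive and one with 0 as negative. In progesterone luminal-like cells Spdef was read in 48.2% of 1305 positive cells (exact 95% interval 45.5 to 51.0) and in 21.1% of 279 negative cells (16.5 to 26.4). Their median depths before thinning were 5233 and 5766 UMIs, so the positive cells were not the deeper ones. In basal squamous-like cells, taken as a type that lacks it, Spdef was read in 0.463% of 2377 cells, of median depth 4351 UMIs. Without thinning, 57.2% of all progesterone luminal-like cells and 10.3% of control ones had a Spdef UMI, and after it 41.5% and 9.09%.

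Creb3l1, Ehf and Sox9 were also read in more Muc5b-positive cells. Creb3l1 was in 17.9% of positive and 6.09% of negative cells, Ehf in 74.1% and 54.8%, and Sox9 in 6.82% and 2.15%. Elf3 was in fewer positive cells, 14.4% (12.5 to 16.4) against 21.9% (17.2 to 27.2). Sox17 (0.46% and 6.81%) and Trp63 (1.69% and 7.17%) were also read in fewer positive cells. Foxa2 was at 19.6% and 19.4%, and Emx2 and Klf5 had overlapping intervals as well. The 7 genes named before Foxa2 had intervals that did not overlap.

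The shares followed the amount of Muc5b. Spdef was read in 21.1% of cells with 0 Muc5b UMIs, 25.3% with 1 to 2, 37.2% with 3 to 9, 49.7% with 10 to 29 and 61.2% with 30 or more. Creb3l1 went from 6.09% to 24.1% and Ehf from 54.8% to 77.3% between the first and last of these ranges. Elf3 went from 21.9% to 10.1%, while Foxa2 stayed between 16.8% and 21.7%. The bins held 190 to 597 cells.

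**Figure D3:**
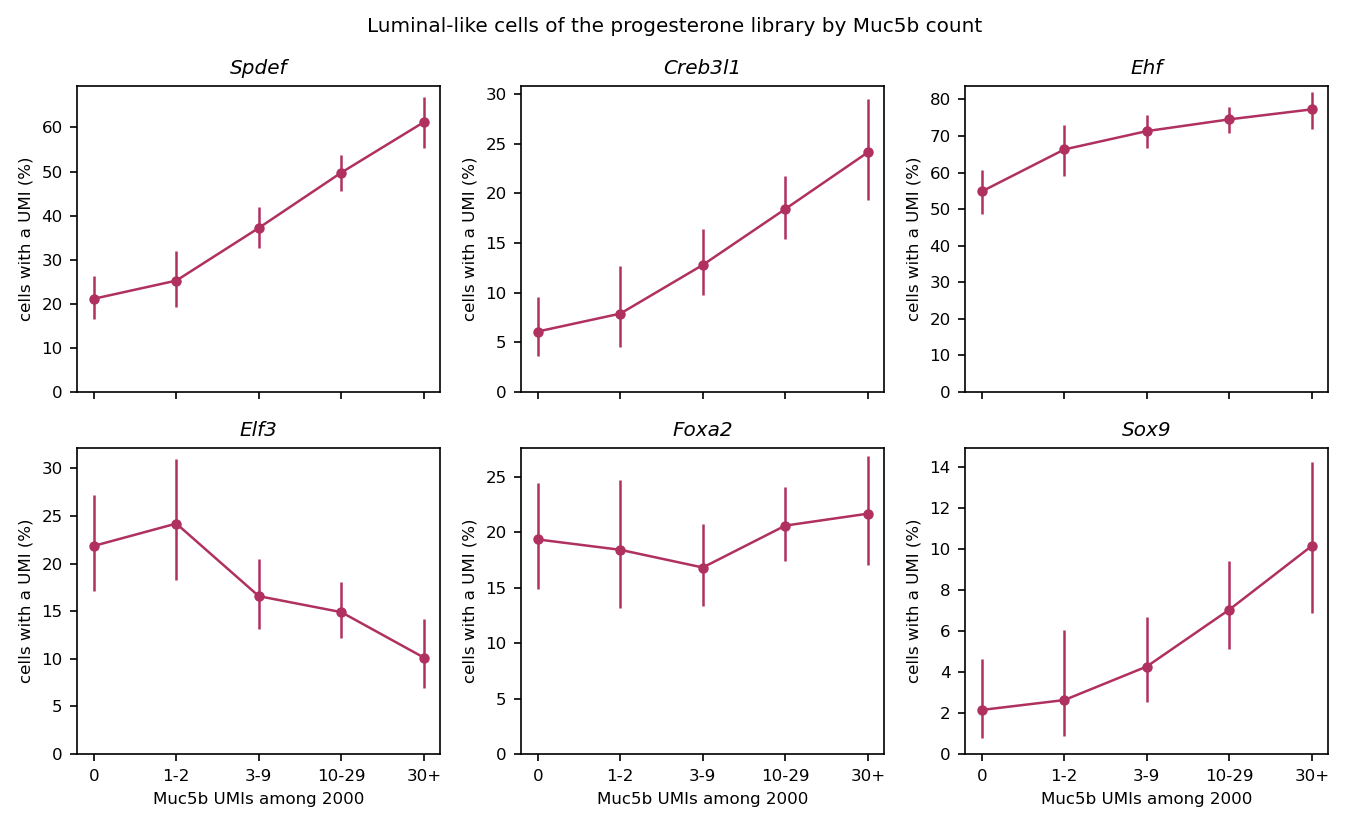
Share of progesterone luminal-like cells with a UMI of each gene (vertical axis, percent) by the number of Muc5b UMIs in the same cell (horizontal axis, ranges), after thinning to 2000 UMIs. Bars are exact 95% intervals over cells; Spdef goes from 21.1% to 61.2%, Elf3 from 21.9% to 10.1%, and the points of Foxa2 stay between 16.8% and 21.7%.

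The relation of Spdef to Muc5b was present within clusters. In progesterone cluster 5 Spdef was read in 59.4% of positive and 34.0% of negative cells, and in cluster 7 in 32.5% and 6.82%, with intervals apart in each. Ehf showed the same order within cluster 5 (77.3% and 64.7%) and cluster 7 (70.3% and 43.2%). Elf3 had lower shares in positive cells of cluster 7 (18.9% and 39.8%, apart), whereas in cluster 5 its intervals overlapped (12.1% and 13.5%). Creb3l1 was apart in cluster 5 (15.2% and 5.77%) and overlapped in cluster 7 (14.4% and 9.09%).

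The control library had only 6 Muc5b-positive luminal-like cells after thinning, so its cells were read with cluster 14 included, giving 40 positive and 196 negative cells. Spdef was in 50% of positive cells (33.8 to 66.2) and 15.3% of negative cells (10.6 to 21.1). Ehf was in 75.0% and 39.3%, and Elf3 in 15.0% and 45.4%, so the order of these 3 genes was that of the progesterone cells. Creb3l1 was in 0 of 244 control cells, which allows a share of cells with a UMI of up to 1.23% by the floor of 3 counts and 1.5% by the exact interval, against 14.9% of 1774 progesterone luminal-like cells. Of the 40 positive control cells, 34 were in cluster 14.

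The shares were also read by Olfm4, the progenitor label of the study. In progesterone luminal-like cells Spdef was read in 36.5% of 572 Olfm4-positive cells (32.6 to 40.6) and 45.4% of 958 negative cells (42.2 to 48.6). This difference of -8.87 percentage points was -0.558 when cells were thinned to 1000 UMIs. Within clusters 5, 7 and 12 the intervals overlapped, and in cluster 7 the positive cells had the higher share (28.2% and 25.2%). With cluster 14 included the shares were 36.6% of 573 and 44.8% of 974 cells. The other 9 factors had overlapping intervals. In control luminal-like cells with cluster 14, Spdef was in 38.3% of 60 Olfm4-positive cells (26.1 to 51.8) and 14.7% of 136 negative ones (9.22 to 21.8). Whether the libraries differ in this could not be tested with 1 library each.

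Olfm4 and Muc5b were themselves read together. Among progesterone luminal-like cells 97.7% of the Olfm4-positive and 74.3% of the Olfm4-negative cells had a Muc5b UMI. Spdef was in 57.4% of 594 cells positive for Muc5b and negative for Olfm4 (53.3 to 61.4), in 39.1% of 516 cells positive for both (34.9 to 43.5) and in 22.4% of 246 cells negative for both (17.3 to 28.1), and these intervals did not overlap. Creb3l1 was at 18.2%, 17.8% and 5.69% in the same groups, with no separation of the first pair. Only 13 cells were Olfm4-positive and Muc5b-negative. These groups were pooled over clusters that differ in both genes. Olfm4 and Spdef were read in 69.4% and 27.3% of cells in cluster 7 and in 16.1% and 48.9% in cluster 5. Cluster 12 had 50.7% and 56.9%, and cluster 23 had 0% of each. The part that clusters played in the order of Spdef shares was not tested.

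Krt5 separated Trp63 from the secretory factors across the epithelium. Among all progesterone epithelial cells Trp63 was read in 28.1% of 3799 Krt5-positive cells and 3.54% of 875 negative ones, and in control in 17.3% of 2212 and 3.68% of 190. Spdef was read in 5.11% and 37.8% in progesterone and in 0.904% and 17.9% in control. Elf3 was in 11.8% of positive and 40.5% of negative control cells, and in 7.98% and 16.9% of progesterone cells. Ehf differed in progesterone (42.2% and 66.6%) and overlapped in control (54.2% and 50.5%). Emx2 and Klf5 had overlapping intervals in each library.

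Within the progesterone luminal-like cells the shares of Spdef did not differ by Krt5 beyond counting error. It was read in 39.5% of 362 Krt5-positive and 41.5% of 790 Krt5-negative cells, with overlapping intervals. Creb3l1 was in 8.29% and 16.6%, Sox9 in 2.21% and 6.96%, and Trp63 in 6.63% and 1.01%, each apart. Cells positive for Krt5 and Muc5b, 168 in number, had Spdef in 54.2% (46.3 to 61.9). Krt5 was also at 552 CPM in neutrophil-like progesterone cells, which do not make it, and the part of free RNA in the counts of Krt5-positive luminal-like cells was not tested.

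The factors were also read against each other in progesterone luminal-like cells, pooled over their clusters. Spdef was in 48.9% of cells in cluster 5, 27.3% in cluster 7, 56.9% in cluster 12 and 0% in cluster 23. The part that clusters played in the pairs was not tested. Spdef was in 50.2% of 265 cells with Creb3l1 and 40.0% of 1509 without, and in 44.5% of 1246 cells with Ehf and 34.5% of 528 without. It was in 32.9% of 295 cells with Elf3 and 43.2% of 1479 without, and in 13.3% of 30 cells with Sox17 and 42.0% of 1744 without. Ehf was in 62.4% of cells with Elf3 and 71.8% of cells without, and in 43.3% with Sox17 and 70.7% without. Each of these pairs had intervals that did not overlap. Among the 88 control luminal-like cells only Elf3, Ehf and Klf5 were read in enough cells (25, 36 and 39) to split the others by them. All of those pairs overlapped. Creb3l1 was in 0 of the 88, so its pair with Spdef could not be read in control.

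Genes with the most similar profile were taken over 21 profiles, each an epithelial cluster of at least 50 cells in 1 library, among 7912 genes. The profiles share libraries and depth, so the correlations are descriptions. Spdef was closest to Galnt12, an enzyme that starts mucin O-glycans (Pearson r 0.98), to Agr2, a disulfide isomerase needed for mucin folding (0.97), and to Sgms2, a sphingomyelin synthase (0.97). Creb3l1 was closest to 4933407L21Rik (0.99), Aqp9 (0.98) and Ugt2b34 (0.97), and Foxa2 to Mlph, Lrrc26 and Rassf3 (0.96 to 0.94). Trp63 was closest to Fjx1 (0.98), 4631405K08Rik (0.96) and Ptprz1 (0.96), and Elf3 to Ifngr2, Cldn7 and Tmc4 (all 0.93). Emx2 was closest to Thap3 (0.92), Zbtb20 and Rbpj, and Sox9 to Pcbd1 (0.83), Dnajc1 and Lrig1. The best matches were weaker for Ehf (Tmprss11b 0.82, Clip1, Sphk2), Sox17 (Anp32a 0.77, Nudt9, Ndrg3) and Klf5 (Jmjd1c 0.76, Gm10399, Atp9b).

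Other genes of secretion stood higher with progesterone in the same cells. Of 19 secretory genes 16 were tested in luminal-like cells and all 16 were at least 2-fold higher, against 16.0% of all genes tested, with a median log2 ratio of 2.07 against -0.08. The largest ratios were those of Clca1, a secreted mucus protein (69.4 and 4575 CPM, ratio 65.9, 46.9 to 95.7), Muc5ac (2.10 and 51.3 CPM, 24.4, 4.35 to 964) and Tff2, which had 0 control UMIs and was at least 3.29-fold higher. The smallest were Galnt12 (2.07), Xbp1, a factor of the unfolded protein response (2.26), and Fcgbp (2.49). With cluster 14 included 15 of 16 were at least 2-fold higher, against 23.9% of all genes. Within cluster 5 the 15 tested had a median log2 ratio of 2.25 against -0.22 for all genes. Within cluster 7 the median of 16 tested was lower, at 1.56 against 0.04.

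Of 9 genes for transport from the endoplasmic reticulum to the Golgi, 3 were at least 2-fold higher and 0 lower, against 16.0% and 8.87% of all genes in luminal-like cells, with a median log2 ratio of 0.64. These were Sec24d, a cargo adaptor of the COPII coat (2.10 and 23.9 CPM, ratio 11.4, 2.02 to 451), Kdelr3 (10.4, 1.85 to 412) and Sec24a (2.44, 1.28 to 5.38). The intervals of Sec23a (1.02), Sar1a (1.16) and Sar1b (1.2) included 1. Within cluster 5 the 9 transport genes had a median log2 ratio of 0.89 against -0.22 for all genes. Within cluster 7 their median was 0.20 against 0.04. Of 35 other epithelial lineage factors 25 were tested, of which 4 were higher, a share like that of all genes (16.0%), and 4 lower (8.87% of all genes), with a median of -0.06. The lowest ratios were those of Barx2 (0.217, 0.123 to 0.409), Gata3 (0.271, 0.142 to 0.570) and Grhl3 (0.353), and the highest those of Sox21, Msx1 (5.64, 0.991 to 224) and Elf5 (3.40), which rest on 0 or 1 control UMIs each. Of 8 genes associated with p63, 7 were tested, with 3 higher and 1 lower against the same background. Fgfr2 (2.56) and Bmp7, with 0 control and 21 progesterone UMIs, were among the higher genes and Jag2 (0.477) was the lower one, all 3 with intervals that included 1.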

How the data were processed

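Single-cell libraries of the cervix of ovariectomised mice were analysed, 1 control and 1 progesterone library. The values are unnormalised UMI counts as the authors deposited them: whole numbers, 1 per gene and cell barcode, in a matrix type that the file headers give as integer. The submitters' processing notes name Cell Ranger 3.0.2 and the mm10 build; the annotation and the use of strand in counting are not given in the sources used here. The files held 5368 control and 10853 progesterone barcodes with 21658684 and 44811069 UMIs, each barcode with at least 500. Of the 31053 gene identifiers, 31011 were in GENCODE M21, the source of gene positions.

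Cells needed 200 genes or more, and those over 20% mitochondrial UMIs were dropped. The highest Scrublet scores were left out as doublets at 0.8% per 1000 cells (181 control and 680 progesterone cells). Both libraries were clustered together in scanpy 1.11.5 (2000 variable genes, 30 principal components, 15 neighbours, Leiden resolution 1) without mitochondrial genes, the 10 factors, Muc5b, Olfm4, Krt5 or list genes. To be named, a cluster needed a mean marker log2 ratio of 0.75 or more, 0.5 above that of any other class, with 3 or more markers detected. The basal and suprabasal lists were not rivals for this lead, and a lead under 0.5 between them gave the mixed squamous name. Among its 10 leading genes, markers of other classes could not outnumber its own. Very shallow clusters with no own marker among these genes stayed unnamed. Non-epithelial names needed Krt14 under 2500 CPM. These thresholds were chosen with the clusters in view, so names are written as X-like. Unnamed cells were 47.1% of control and 21.6% of progesterone cells.

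UMIs were summed per group and library and scaled to 1000000 (CPM). Levels have exact Poisson, ratios exact conditional binomial and shares Clopper-Pearson intervals, all at 95%; these and the floor of 3 counts for a 0 cover counting error only. Single-gene log2 ratios had 0.5 added to each count. Genes with at least 20 UMIs in a group were compared, with 2-fold as the mark. The scripts were tested on simulated data. Similar genes were the 3 with the highest Pearson r of log2(CPM + 10), among genes with at least 500 epithelial UMIs, and list genes named are up to 3 highest and 3 lowest by ratio in luminal-like cells; 1 list gene is counted but its values are not reported here. The members, lists and tests were chosen with earlier results of these data known. Alternatives were the cell filter, doublets, clustering resolution, separate clustering, keratin gates, scaling, per-cell means, the low count filter, thinning depth and partner threshold; cluster 14 as luminal and leaving out clusters of 1 library were added after seeing the data.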

Additional observations from a re-analysis of the deposited data

Results flagged for a closer look

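Ehf had ratios on opposite sides of 1 in different epithelial types, with intervals that excluded 1 in each: the log2 ratio was 1.36 in luminal-like cells and -0.91 in basal squamous-like cells, and 0.53 in suprabasal squamous-like cells against the same -0.91. Elf3 was at -1.22 in luminal-like cells and 1.93 in suprabasal cells. Klf5 was at -0.54 in luminal-like and 0.90 in suprabasal cells. Sox9 was at 1.88 in luminal-like and 1.09 in basal cells, against -1.41 in suprabasal cells. The differences between the types were not tested, because each type has 1 library per group. Within cluster 11, the suprabasal cluster with cells of both libraries, Elf3 was at 0.920 times its control level with an interval that included 1. Ehf, Sox9 and Klf5 had ratios of 1.13, 0.229 and 1.38 there, on the same side of 1 as over all suprabasal cells. The separate level intervals of Ehf and Sox9 overlapped, which does not mean that their ratio intervals included 1. In basal cells Ehf was lower within clusters 0 (0.732) and 1 (0.700), but its interval included 1 within cluster 6 (0.954). The Sox9 intervals included 1 within clusters 0, 1 and 6 (1.07, 0.864 and 2.08). The part that clusters played in these contrasts was not tested.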

How the results depend on the processing

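No paired analysis was possible because each group is 1 library, and the replicate number is only a name. Of the 10 genes, 5 were past 2-fold in luminal-like cells. The count was 2 after a stricter cell filter, 2 without doublet removal and 2 at Leiden resolution 2. In these settings 186, 249 and 231 control cells were luminal-like in place of 155. With the libraries clustered apart, 665 control cells (14.5%) and 2046 progesterone cells (24.0%) were luminal-like. The count of 4 in suprabasal cells was 2 without doublet removal and 2 without the clusters held almost wholly by 1 library. The count of 3 in basal cells was 1 without such clusters. The shares of all genes past 2-fold in these settings are not given here, so the smaller counts cannot be set against them. The share of cells with Spdef was 27.1 percentage points higher in Muc5b-positive than in Muc5b-negative progesterone luminal-like cells, 17.9 points at 1000 UMIs per cell, 40.5 at 4000 UMIs and 36.4 without doublet removal. Log2 ratios of Sox9 (-0.13) and Emx2 (-0.059) in basal cells and of Elf3 in suprabasal cells (-0.14) changed sign without the clusters of 1 library, and so did the difference in Sox9 shares by Krt5 (0.481 points) without doublet removal. The cause was not tested. Of 448 other values, 368 moved by no more than their counting interval and 76 by more. The share of all genes past 2-fold in luminal-like cells was 24.8%, and 46.6% with no low count filter. Keratin gates gave no suprabasal group and no value there. The 475378 UMIs of control luminal-like cells limit all luminal ratios.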

Other observations

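Cluster 2, an unnamed epithelial cluster led by Sprr2d, Lcn2 and Ltf, held 1070 control and 52 progesterone cells, with 30.9% of all control UMIs. It carried 50.1% of control Elf3 UMIs, 54.3% of Foxa2, 47.2% of Sox9, 42.4% of Ehf and 42.4% of Klf5. Its Spdef level was 7.56 CPM in control and 15.0 in progesterone, with a ratio whose interval included 1 (1.99, 0.759 to 4.43), and its Trp63 level was 41.5 and 25.8 CPM.

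The 19 progesterone cells of cluster 14 had Elf3 at 954 CPM from 241 UMIs and Spdef at 127 CPM from 32 UMIs, with 0 UMIs of Foxa2. The cycling cells of cluster 9 had Klf5 at 88.6 CPM in control and 150.2 in progesterone (ratio 1.70, 1.41 to 2.04) and Elf3 at 19.7 and 45.4 CPM (2.30, 1.59 to 3.40).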
